A study of Mus musculus with 6 samples.

Results

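Kruppel-like factors (KLFs) were examined in the RNA-seq data of mouse fibroblasts treated with vehicle or TGFβ. The genes were taken by name, *Klf2*, *Klf3*, *Klf4*, *Klf5*, *Klf6*, *Klf9*, *Klf10*, *Klf11*, *Klf13* and *Klf15*, and all 10 were found among the 25140 genes of the deposited count table. Each passed the filter on low counts, so 10 of 10 were among the 14334 genes tested. Vehicle and TGFβ cells (3 libraries each) were primary cardiac fibroblasts of the C57BL/6 strain at passage 1, grown from adult hearts in DMEM with 25 mM glucose and 10% FBS and kept in 1% FBS for 16 h before treatment. TGFβ cells then received 10 ng/ml of the cytokine for 24 h, and vehicle cells received none. The labels name no transgene or deletion. The methods name cardiac fibroblasts and 3 biological replicates, whereas the results of the study speak of mouse embryonic fibroblasts for the same experiment. For all experiments, the methods also state 1% FBS from 24 h before TGFβ and throughout the treatment, unlike the 16 h given above.

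KLFs are transcription factors that share a block of zinc fingers at the C-terminus, through which they bind GC-rich and CACCC-type DNA, while their N-terminal parts differ and recruit coactivators or corepressors. *Klf3* encodes a repressor that binds CtBP proteins, and *Klf9*, *Klf10*, *Klf11* and *Klf13* encode proteins that bind the SIN3A corepressor. *Klf10* and *Klf11* were first described as TGFβ-inducible early genes. TGFβ turns fibroblasts into myofibroblasts, and several KLFs are known in fibroblasts, vascular cells and heart muscle as regulators of matrix, contractile and metabolic genes.

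TGFβ lowered the mRNA of *Klf2*, *Klf3*, *Klf6*, *Klf9* and *Klf15* and raised that of *Klf13*. *Klf15* moved most, and its level fell by 62.1%, followed by *Klf9*, which fell by 31.9%. *Klf2* fell by 24.7%, *Klf6* fell by 17.0% and *Klf3* fell by 15.1%, while *Klf13* rose by 21.2%. *Klf4*, *Klf5*, *Klf10* and *Klf11* did not pass the test. With an adjusted p of 0.05 over all genes tested (edgeR's quasi-likelihood test), 6 of the 10 genes were called, where 40.7% of all genes tested were called. In the downward direction 5 of 10 were called, against 20.1% of all genes, and in the upward direction 1 of 10, against 20.5%. Their median log2 fold change was -0.19, beside -0.0013 over all genes tested, and their median absolute log2 fold change of 0.25 lay beside 0.21. The libraries of the groups did not overlap for 7 of the 10 genes, and for 53.3% of all genes tested. Of these 7, 5 were lower and 2 (*Klf10* and *Klf13*) higher with TGFβ, where 26.1% and 27.2% of all genes were apart in these directions. Summed over the 10 genes, the level was between 847 and 938 CPM in vehicle libraries and between 764 and 798 CPM in TGFβ libraries.

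**Figure D1:**
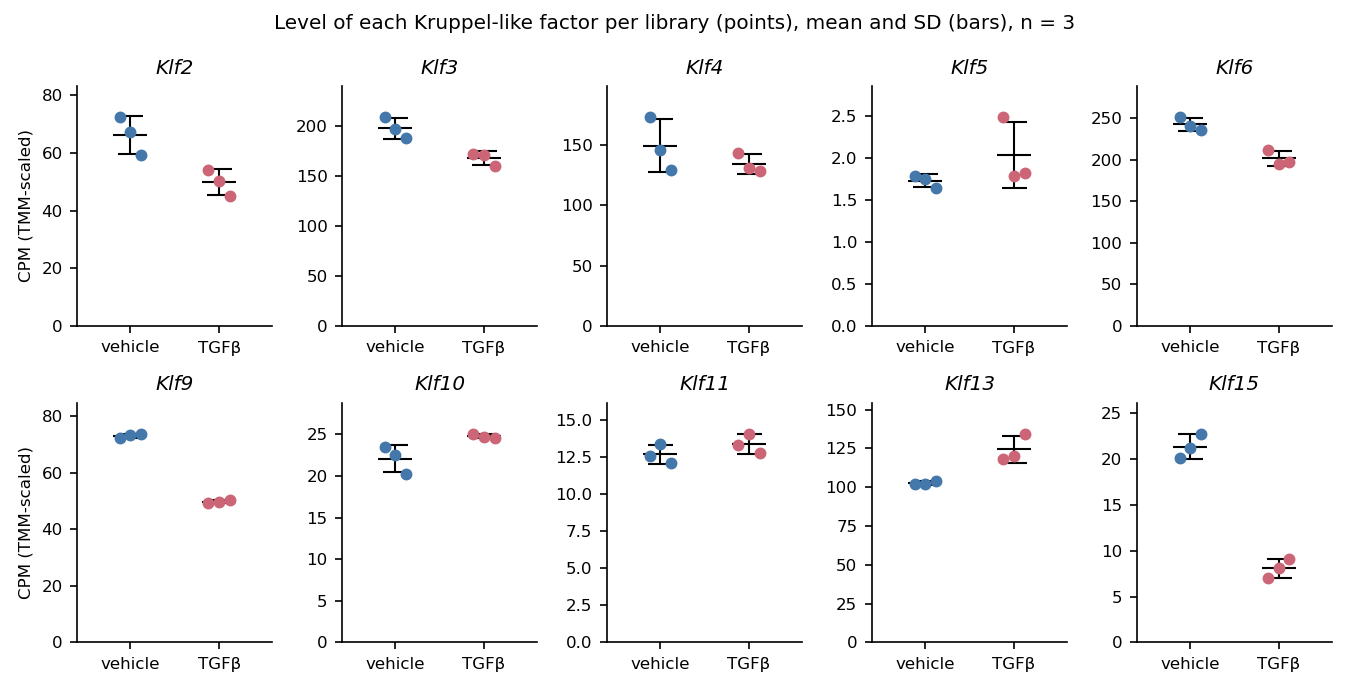
Level of the 10 *Klf* genes in CPM (scaled reads, vertical axis from 0) in each vehicle (blue) and TGFβ (red) library, with the mean and SD of 3 libraries as bars. *Klf15* drops from about 21.4 to 8.08 CPM and *Klf9* from 73.2 to 49.8 CPM with hardly any spread, while the points of *Klf4*, *Klf5* and *Klf11* overlap between groups.

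The libraries held between 27851677 and 31072338 reads counted on genes, so even *Klf5*, the least counted member, had 49 to 68 reads per library. Levels are given as CPM, a gene's reads divided by the TMM-adjusted size of its library. Values of single libraries follow the order of the columns in the table, which carry no replicate number. Fibroblast markers were abundant, with *Col1a1* at 19992 ± 1515 CPM and *Pdgfra* at 665 ± 55.3 CPM with vehicle (SD, n = 3), although 8 of 11 fibroblast markers were called lower and 1 higher, and 11 of 16 genes of a list of TGFβ responses were called higher and 1 lower. Of the cardiomyocyte markers, *Myh6*, a myosin of heart muscle, averaged 0.254 CPM in vehicle and 0.0960 CPM in TGFβ libraries, and *Tnnt2* 46.7 and 34.0 CPM. Smooth muscle and pericyte markers were called higher in 3 of 10 cases and lower in 1, and epicardial markers higher in 1 of 8. Endothelial markers were present, among them *Cdh5* at 200.1 ± 62.3 CPM and *Pecam1* at 109 ± 29.8 CPM with vehicle (SD, n = 3). In such bulk samples, fewer cells of a type and less RNA per cell cannot be told apart.

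*Klf15* encodes a factor known in the heart for the control of branched-chain amino acid and glucose use, and for holding back the fibrotic gene *Ccn2*. It was expressed at 20.1, 21.2 and 22.8 CPM in the vehicle libraries and at 6.98, 8.16 and 9.09 CPM in the TGFβ libraries. All vehicle libraries lay far above all TGFβ libraries, with means of 21.4 ± 1.35 and 8.08 ± 1.05 CPM (SD, n = 3 each). By edgeR the log2 fold change stood at -1.40 ± 0.10 (SE, adjusted p = 4.96e-05), and only 3.68% of the genes tested had a larger absolute change. When single libraries were dropped it ran from -1.502 to -1.31. *Klf15* occupies bases 90462576 to 90475238 of chromosome 6 (plus strand, GRCm38, GENCODE M21). The summed level of the cardiomyocyte markers ran from 38.9 to 60.3 CPM with vehicle and from 27.7 to 40.8 CPM with TGFβ, most of it *Tnnt2*, and 0 of the 3 markers tested were called. Its part in the *Klf15* result was not tested.

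*Klf9* encodes a factor whose gene, like *Klf15*, is known to be induced by glucocorticoids. Its level was 72.4, 73.3 and 73.9 CPM with vehicle and 49.2, 49.8 and 50.4 CPM with TGFβ. The replicates were almost identical, with a coefficient of variation of 0.996% and 1.21%, and the groups were widely apart. By edgeR the log2 fold change stood at -0.55 ± 0.03 (SE, adjusted p = 2.76e-05). *Klf9* occupies bases 23141226 to 23168134 of chromosome 19 (plus strand) and holds the microRNA gene *Mir1192* in an intron.

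The 250 bases before the start of *Klf15* and *Klf9* are shown because these genes fell most, and those of *Klf13* because it was the only member called higher. They were taken from RefSeq (GRCm38.p6) and are written 5′ to 3′ on the gene's own strand, from chr6:90462326-90462575 (plus), chr19:23140976-23141225 (plus) and chr7:63938916-63939165 (minus). Capitals mark letters that match any of the motifs searched on both strands.
Klf15: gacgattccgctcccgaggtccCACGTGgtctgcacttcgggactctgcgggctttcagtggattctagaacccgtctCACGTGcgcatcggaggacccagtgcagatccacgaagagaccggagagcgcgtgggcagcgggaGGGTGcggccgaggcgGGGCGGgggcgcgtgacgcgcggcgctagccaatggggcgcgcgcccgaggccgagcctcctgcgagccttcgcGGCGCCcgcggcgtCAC
Klf9: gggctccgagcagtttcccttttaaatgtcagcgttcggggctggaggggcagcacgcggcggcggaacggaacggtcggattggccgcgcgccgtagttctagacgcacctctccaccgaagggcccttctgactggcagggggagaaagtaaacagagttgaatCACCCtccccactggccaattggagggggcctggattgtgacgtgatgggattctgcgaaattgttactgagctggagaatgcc
Klf13: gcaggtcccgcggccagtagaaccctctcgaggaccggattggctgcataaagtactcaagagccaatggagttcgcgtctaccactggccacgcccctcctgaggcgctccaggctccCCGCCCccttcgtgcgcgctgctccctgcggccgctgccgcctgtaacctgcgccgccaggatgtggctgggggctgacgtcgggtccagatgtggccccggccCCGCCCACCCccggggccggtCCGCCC

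Promoters from 250 bases before to 50 after the start were found in the RefSeq table for 8 of the 10 genes, all but *Klf5* and *Klf10*. The E-box CACGTG, the site of clock and MYC-type factors, occurs 3 times in the *Klf15* promoter, the last copy running past the start and so printed only as CAC. Of 27025 promoters in the table, 7.24% hold CACGTG and 0.0888% hold at least 3 copies, a cut taken from the number seen in *Klf15*. *Klf4*, *Klf6* and *Klf11* hold 1 copy each, and *Klf9* and *Klf13* none. The CACCC element, a KLF site, is in 5 of the 8 promoters and in 56.7% of all, and the GC box GGGCGG, which SP factors and KLFs bind, in 7 of 8 and in 35.9% of all. *Klf9* holds 1 CACCC and no GC box, and its 250 bases are 59.6% G and C, the lowest of the 8. The highest is *Klf3* with 78.4%, beside a median of 52.0% over the table. The shares of all promoters given here were not matched for G and C content. The GC-rich SMAD element GGCGCC is in the promoters of *Klf3*, *Klf11* and *Klf15* and in 3233 of the 27025. A CACCC element and a GC box overlap by 1 base in *Klf3* and in *Klf13*. The other SMAD element searched, CAGACA, is only in that of *Klf3* among the 8 and in 5684 of the 27025. None of the 8 holds the palindrome GTCTAGAC, the AP-1 site TGAGTCA, the cyclic AMP response element TGACGTCA, the MEF2 core TATTTATA or TGTTCT (only a part of the full glucocorticoid receptor site). These are in 0.211%, 5.17%, 1.88%, 1.77% and 19.0% of all promoters. Only the exact letters given here were searched, so other spellings of a site, those of MEF2 in the *Klf2* promoter included, were not looked for. The matches describe the letters of a short window and do not locate bound sites.

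*Klf2* encodes a factor best known from endothelial cells and lymphocytes, where flow and the kinase ERK5 induce it through MEF2. It was read at 72.4, 67.3 and 59.2 CPM with vehicle and at 54.2, 50.4 and 45.2 CPM with TGFβ. The lowest vehicle library lay above the highest TGFβ library, but by less than the range within either group. By edgeR the log2 fold change stood at -0.41 ± 0.09 (SE, adjusted p = 0.00798), and it stayed between -0.48 and -0.34 with each library left out. None of 12 endothelial markers passed the test, and their summed level ran from 531 to 834 CPM with vehicle and from 485 to 682 CPM with TGFβ. The vehicle library in which *Klf2* was highest had the lowest sum of endothelial markers of its group. The leukocyte markers summed to 257 to 372 CPM and 221 to 331 CPM, with 1 of 10 tested (*Cd14*) called lower. The part of these cells in the *Klf2* result was not tested.

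*Klf6*, an early response gene known from injured vessels and activated stellate cells of the liver, was at 251, 241 and 236 CPM with vehicle and at 213, 195 and 198 CPM with TGFβ. The groups were separate, and by edgeR the log2 fold change stood at -0.27 ± 0.05 (SE, adjusted p = 0.00367). *Klf3*, which encodes the CtBP-binding repressor, was at 208, 196 and 187 CPM with vehicle and at 172, 171 and 159 CPM with TGFβ. Again no TGFβ library reached a vehicle library, and by edgeR the log2 fold change stood at -0.24 ± 0.05 (SE, adjusted p = 0.00997). An antisense transcript, *Gm20033*, overlaps exons of *Klf3*, and held 0.215% as many counts as *Klf3*. Whether strand was used in counting is not given in the sources used here. On GRCm38, *Klf2* is at 72319033 to 72321656 of chromosome 8, *Klf3* at 64803388 to 64832901 of chromosome 5 and *Klf6* at 5861482 to 5870394 of chromosome 13, all on the plus strand.

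*Klf13*, which encodes a SIN3A-binding factor of heart development and lymphocytes, was the only member called higher. Its level was 102, 102 and 104 CPM with vehicle and 118, 120 and 134 CPM with TGFβ. Vehicle libraries lay within a coefficient of variation of 1.08%, and every TGFβ library was higher, with more spread (6.997%). By edgeR the log2 fold change stood at 0.28 ± 0.05 (SE, adjusted p = 0.00494), and 0.21 without the TGFβ library of 28641986 counts, the highest for *Klf13*. *Klf13* occupies bases 63886351 to 63938915 of chromosome 7 (minus strand). The *Klf13* share of the summed CPM of the 10 genes went from 11.6% ± 0.705 to 16.0% ± 1.41, and that of *Klf15* from 2.41% ± 0.273 to 1.04% ± 0.159 (SD, n = 3 each). That sum itself fell from a mean of 890 to 776 CPM, which raises the shares. Shares of *Klf4*, *Klf5*, *Klf10* and *Klf11*, none of them called, also rose, and those of the remaining members fell. The shares are not per length.

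*Klf10* and *Klf11*, the TGFβ-inducible early genes, differed little between the groups at 24 h. *Klf10* was at 23.5, 22.5 and 20.3 CPM with vehicle and at 25.1, 24.7 and 24.6 CPM with TGFβ. All TGFβ libraries were above all vehicle libraries, yet the log2 fold change of 0.17 (95% confidence interval 0.02 to 0.31) had an adjusted p of 0.0711 from edgeR. Without the vehicle library of 31072338 counts, the highest of its group for *Klf10*, the log2 fold change was 0.21 and the adjusted p from edgeR 0.0445. Without the vehicle library of 29331999 counts, the lowest for *Klf10*, they were 0.11 and 0.173. Over all alternatives its adjusted p ran from 0.0445 to 0.182. *Klf11* stood at 12.6, 13.4 and 12.1 CPM with vehicle and 13.3, 14.1 and 12.8 CPM with TGFβ. The groups overlapped, and the interval of the log2 fold change, -0.09 to 0.24 around 0.08, holds 0 (adjusted p = 0.424 from edgeR). Dropping either the TGFβ library with 28894151 counts or the vehicle library with 29331999 moved it to 0.04, and dropping the vehicle library with 29296570 moved it to 0.12.

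*Klf4*, a pluripotency factor that in smooth muscle represses contractile genes, varied more between vehicle libraries than any other member (coefficient of variation 14.7%). It was at 173, 146 and 130 CPM with vehicle and at 144, 131 and 128 CPM with TGFβ, and the groups overlapped. The log2 fold change was -0.15 (95% confidence interval -0.39 to 0.08, adjusted p = 0.268 from edgeR). It was -0.03 without the vehicle library of 31072338 counts, whose 173 CPM was the highest value, and -0.25 without that of 29331999 counts. The same vehicle library of 31072338 counts held the highest vehicle level for 6 of the 10 genes, and for 34.4% of all genes tested. It also had the highest sum of epicardial markers, 157 CPM where the other vehicle libraries had 81.8 and 86.7 CPM, and the part of these cells in the *Klf4* and *Klf10* values was not tested.

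*Klf5*, which in activated fibroblasts and smooth muscle is known to induce *Pdgfa*, was the least expressed member. It was at 1.79, 1.75 and 1.64 CPM with vehicle and at 2.49, 1.79 and 1.82 CPM with TGFβ, and 1 TGFβ library stood above the rest. The log2 fold change was 0.23 with a 95% confidence interval of -0.18 to 0.64 (adjusted p = 0.337 from edgeR), which holds both 0 and the value of *Klf13*. Without the TGFβ library of 27851677 counts, the highest for *Klf5*, the log2 fold change was 0.06. For each of the 7 genes whose groups did not overlap, exact permutation of the CPM between groups (two-sided) gave p = 0.1, and a design of 3 against 3 can give none smaller.

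**Figure D2:**
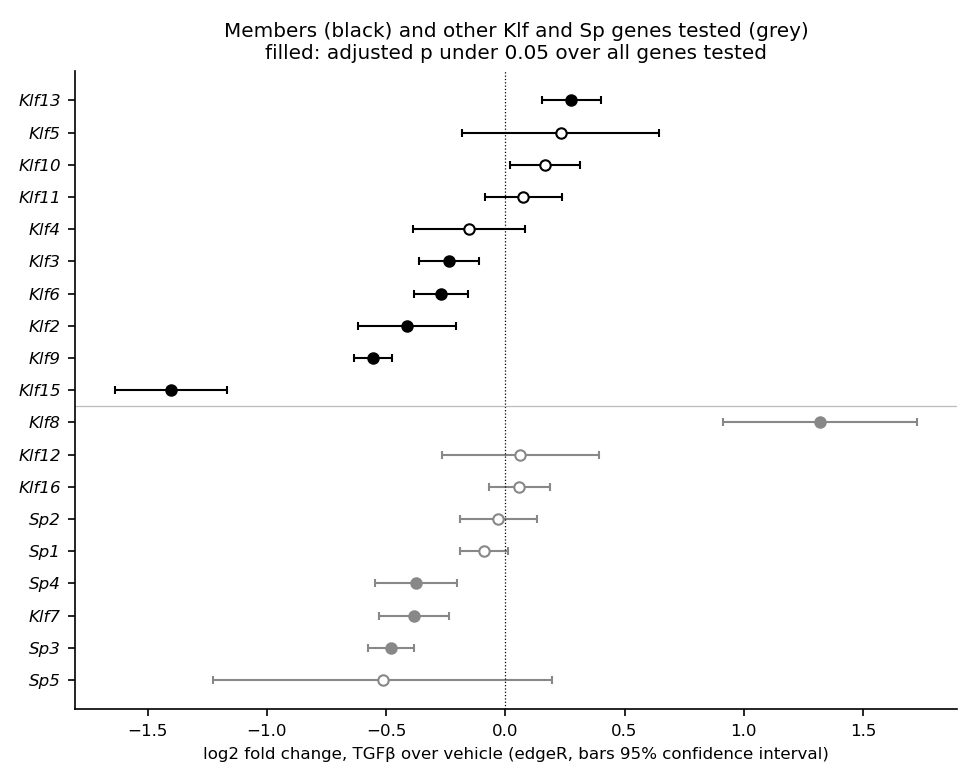
Log2 fold change of TGFβ over vehicle (horizontal axis) with its 95% confidence interval for the 10 *Klf* genes (black, top) and the other *Klf* and *Sp* genes tested (grey, bottom). Filled points passed an adjusted p of 0.05, and *Klf15* (-1.40) and *Klf8* (1.32) lie farthest from 0 in opposite directions.

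Divided by the length of the merged exons, levels spanned from *Klf6*, at 55.3 ± 1.75 CPM per kb with vehicle, to *Klf5*, at 0.332 ± 0.0148 CPM per kb (SD, n = 3 each). *Klf4* followed *Klf6* at 49.1 ± 7.23 CPM per kb, and the ranges of these neighbours overlapped in both groups. Below them came *Klf2* (35.9 ± 3.596 CPM per kb), *Klf3* (17.6 ± 0.942), *Klf9* (15.2 ± 0.151) and *Klf13* (13.6 ± 0.147), with no overlap between neighbours. *Klf15*, *Klf10* and *Klf11* followed at 7.65 ± 0.482, 5.29 ± 0.394 and 2.93 ± 0.149 CPM per kb. With TGFβ the order changed for *Klf13*, which passed *Klf9* and *Klf3* to reach 16.5 ± 1.16 CPM per kb. *Klf15* went the other way, below *Klf10* and to 2.89 ± 0.378 CPM per kb, where its range overlapped that of *Klf11* (3.08 ± 0.151 CPM per kb). The place of *Klf3* depends on the length used: its annotated exons merge to 11.2 kb and its longest transcript has 5.22 kb, by which it would stand at 37.8 CPM per kb with vehicle, above *Klf2*. By that length *Klf3* would be at 32.1 CPM per kb with TGFβ and *Klf13* at 19.4, so that *Klf13* would pass *Klf9* but not *Klf3*. *Klf9* and *Klf13* would lie close together with vehicle, at 16.3 and 16.0 CPM per kb. Overlap of ranges was examined by merged exons only. None of the 75-base windows in the longest transcript of any member occurs in the same orientation in a transcript of another gene (0%). The opposite strand of the windows and the members' other exons were not searched.

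**Figure D3:**
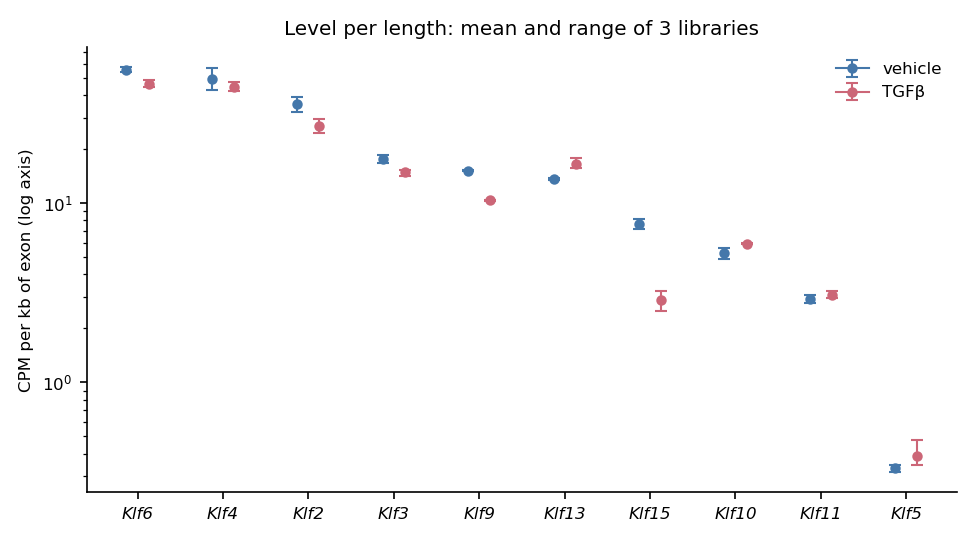
Level of the 10 *Klf* genes in CPM per kb of merged exon (log axis), with the mean and the range of 3 vehicle (blue) or 3 TGFβ (red) libraries, in the order of the vehicle means. *Klf6* and *Klf4* are highest, *Klf5* is lowest, and *Klf15* and *Klf13* change places most.

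Of the 16 other *Klf* and *Sp* genes listed, 9 were tested, and 1 of these was called higher and 3 lower. The counts of this and of every other list stand beside 20.5% called higher and 20.1% called lower among all genes tested. *Klf8*, which encodes a CtBP-binding repressor related to KLF3 and is a known target of KLF3 repression, had 20, 19 and 18 reads with vehicle and 46, 41 and 44 with TGFβ. All TGFβ libraries were higher, by 1.32 ± 0.18 in log2 (SE, edgeR adjusted p = 0.000843), at a level of 0.624 and 1.56 CPM. *Klf7*, the ubiquitous KLF, fell from 51.1 ± 2.44 to 39.2 ± 2.84 CPM, *Sp3* from 136 ± 4.61 to 97.5 ± 2.24 CPM and *Sp4* from 10.4 ± 0.217 to 8.05 ± 0.441 CPM (SD, n = 3 each). *Sp1*, the widely expressed GC-box factor, was at 86.6 ± 1.17 and 81.4 ± 3.56 CPM (SD, n = 3 each) and did not pass the test, nor did *Sp2*, *Sp5*, *Klf12* and *Klf16*.

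Among cofactors of KLF proteins, 3 of 12 were called higher and 3 lower, with a median log2 fold change of 0.0033. *Hdac1* and *Hdac2*, histone deacetylases of the SIN3 complex, rose by log2 fold changes of 0.24 and 0.21, and *Sin3a* itself had one of -0.25. *Kat2b*, an acetyltransferase, had the lowest value, -0.63 (adjusted p = 0.000179 from edgeR). Of 10 ubiquitin ligases described for KLF proteins, 3 were called higher and 2 lower. *Fbxw7*, which marks KLF5 and KLF2 for degradation, rose by 0.74 and *Smurf2* by 0.33 on the log2 scale. *Nedd4l* and *Wwp1*, a ligase of KLF2 and KLF5, had log2 fold changes of -0.85 and -0.40. Of the 7 genes of the ERK5 and MEF2 route upstream of *Klf2* and *Klf4*, 1 was called, *Mef2c*, at a log2 fold change of -0.48 (edgeR adjusted p = 0.009), and 6 were not.

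The list of glucocorticoid targets other than *Klf9* and *Klf15*, which also holds the receptor gene *Nr3c1*, had 2 of 9 genes tested called higher and 5, *Nr3c1* among them, lower. *Fkbp5*, a chaperone of the receptor and a standard glucocorticoid target, rose by 0.54 and the kinase gene *Sgk1* by 0.52 on the log2 scale. *Cdkn1c*, a cyclin-dependent kinase inhibitor, and the phosphatase gene *Dusp1* had log2 fold changes of -1.38 and -0.89. *Nr3c1*, singled out after its values were seen, averaged 165 ± 5.63 CPM without and 125 ± 9.88 CPM after TGFβ (SD, n = 3 each, edgeR adjusted p = 0.00172).

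**Figure D4:**
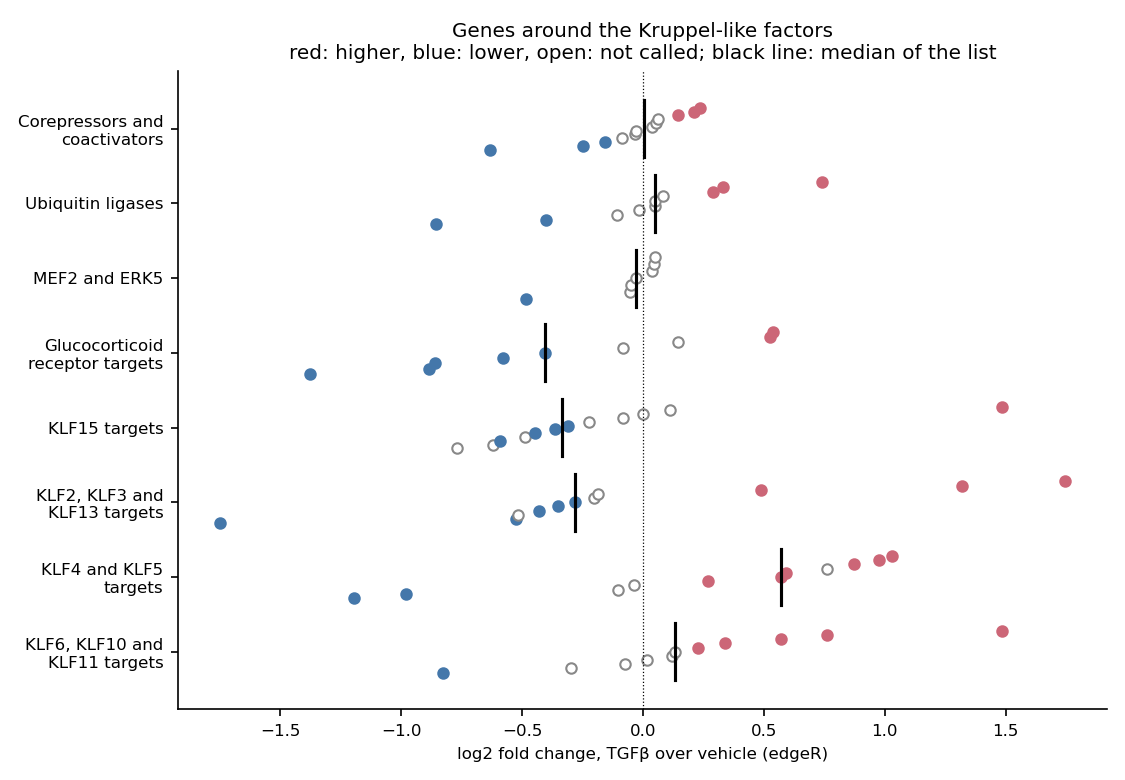
Log2 fold change of TGFβ over vehicle (horizontal axis) for each gene tested in 8 lists around the KLFs, with red points called higher, blue points called lower, open points not called and a black line at the median of the list. The glucocorticoid list has the lowest median (-0.40, which is the value of the receptor gene *Nr3c1*). KLF15 targets (-0.34) and KLF2, KLF3 and KLF13 targets (-0.28) follow, and KLF4 and KLF5 targets have the highest (0.57). Target lists hold repressed genes, such as *Ccn2*, beside others, so a median has no set direction.

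Genes described as targets of KLF15 in heart and muscle were called higher in 1 of 12 cases and lower in 4. The gene that rose was *Ccn2*, listed under its older symbol *Ctgf*, which encodes connective tissue growth factor and which KLF15 is known to repress. It went from 1102 ± 100.2 to 3085 ± 239 CPM (SD, n = 3 each), or 1.49 ± 0.09 in log2 (SE, edgeR adjusted p = 2.03e-05). *Ccn2* is also on the list of TGFβ responses, and the part of *Klf15* in its rise was not tested. *Pdk4*, which encodes a kinase that holds back pyruvate oxidation, and *Bckdhb*, a subunit of the branched-chain ketoacid dehydrogenase, had the lowest log2 fold changes among those called, -0.59 and -0.45. *Bcat2* and *Acsl1* were also called lower, while *Bckdha*, *Bckdk*, *Ppm1k*, *Hibadh*, *Prodh*, *Gpt* and *Slc2a4* were not called.

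Described targets of KLF2, KLF3 and KLF13 were called higher in 3 of 11 cases and lower in 5. *Klf8* was among those called higher, with its log2 fold change of 1.32. *Ccl2*, a monocyte chemokine, and *Thbd*, the endothelial anticoagulant thrombomodulin, had values of -1.75 and -0.52. Targets of KLF4 and KLF5 were called higher in 6 of 11 cases and lower in 2, with the contractile genes *Acta2* (1.03) and *Tagln* (0.97) at the top and the cyclin gene *Ccnd1* (-1.19) and *Egr1* (-0.98) at the bottom of the log2 scale. For KLF6, KLF10 and KLF11, 5 of 11 targets were called higher, led by *Ccn2* (1.49) and *Tgfb1* (0.76), and 1 lower, *Maoa* (-0.83). These lists share genes with each other and with the TGFβ response list, and their counts stand beside the 20.5% called higher and 20.1% called lower among all genes tested.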

How the data were processed

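RNA-seq was measured in 3 vehicle and 3 TGFβ libraries. The authors prepared libraries from poly(A) RNA with a stranded kit, read 75 bases from a single end and used DESeq2, and the submitters' processing notes name mm10. The aligner and counting tool are not given in the sources used here. The authors deposited whole-number counts of reads per gene without normalization, with no replicate number in the columns, beside a mean and their own fold changes and p-values, which were not used. The number of per-sample columns left out was 0.

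The members, lists and tests were chosen with earlier results of these data known. Of the lists around the KLFs, genes named by rule are the 2 largest rises and falls called, at 1 CPM or more on average. Cell type markers, *Nr3c1*, the further KLF15 targets and the other *Klf* and *Sp* genes were named outside this rule. Counts were scaled by TMM, filtered by filterByExpr and put to the quasi-likelihood test without covariates, all with edgeR 4.0.16 (R 4.3.3). Genes were called at 0.05 after Benjamini-Hochberg adjustment over 14334 genes. Standard errors are the log2 fold change over the square root of F. The steps were tested on simulated counts with log2 fold changes of 1 or more in size. All members but *Klf15* changed by less, and changes of their size were not simulated. Replicates differed by more than counting noise (chi-square per gene 7.95 to 27.1). The alternatives were other scalings, DESeq2 1.42.0, limma-voom (limma 3.58.1), other filters and thresholds, each library left out, and, chosen after seeing the data, the longest transcript as length. Places and lengths come from GENCODE M21 (GRCm38, the build also called mm10), and promoters from RefSeq. Protein sequences were not analysed here. For 1 gene that the naming rule gives, the result is not reported here.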

Additional observations from a re-analysis of the deposited data

How the results depend on the processing

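Of the 120 values of the 10 fold changes under other scalings, tools, filters and with each library left out, 119 kept their direction and their side of the threshold, and 1 passed it (*Klf10*, without the vehicle library of 31072338 counts). The number of members called lower stayed at 5 in these settings, and the number called higher ran from 1 to 2 with each library left out. At an adjusted p of 0.01 from edgeR the members were called as before, and 3595 of the 14334 genes tested were called in place of 5828. *Klf3* (0.00997) and *Klf2* (0.00798) passed it narrowly. With single libraries left out, the adjusted p from edgeR reached 0.034 for *Klf3*, 0.028 for *Klf2*, 0.022 for *Klf13* and 0.016 for *Klf6*. At an adjusted p of 0.05 with a log2 fold change beyond 1 also required, 971 of the 14334 genes remained, with 0 members higher and 1 lower (*Klf15*). DESeq2 called 5020 genes, and upper quartile scaling moved the median of all genes by -0.021 on the log2 scale. No paired analysis was possible because the columns of counts carry no replicate number. In the order of the columns, *Klf11* deviated from its group mean by -0.0095, 0.077 and -0.068 with vehicle on the log2 scale. With TGFβ its values were -0.0071, 0.073 and -0.066. *Klf2*, *Klf3*, *Klf4*, *Klf9*, *Klf10*, *Klf13* and *Klf15* also ranked the columns alike in both groups, *Klf9* by deviations of at most 0.018 in size. *Klf15* was at -0.087, -0.0062 and 0.093 with vehicle and -0.20, 0.024 and 0.18 with TGFβ. *Klf5* and *Klf6* did not rank them alike. *Klf5* was at 0.05, 0.02 and -0.07 with vehicle and 0.30, -0.16 and -0.14 with TGFβ. The share of all genes tested that ranked the columns alike was not counted, so this is not a trait of the family. The epicardial marker *Wt1* did so too, at 6.76, 0.978 and 2.78 CPM with vehicle and 7.27, 1.54 and 2.49 CPM with TGFβ, while *Col1a2* did not. The sum of endothelial markers also ranked them alike, at 531, 602 and 834 CPM with vehicle and 485, 536 and 682 CPM with TGFβ. So did the sums of fibroblast, leukocyte and cardiomyocyte markers, while those of smooth muscle and of epicardial markers did not. Whether columns in the same place share a preparation was not tested.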

Other observations

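The genes whose level followed that of *Klf15* most closely over the 6 libraries, by Pearson's r of log2 CPM among 10373 genes of at least 5 CPM, were *Aldh1l1* (r = 0.9996), *Tmem176b* (r = 0.9993) and *Il11ra1* (r = 0.999), with log2 fold changes of -0.62, -1.08 and -0.67. *Il11ra1* encodes the receptor chain for interleukin-11, and *Aldh1l1* an enzyme of folate metabolism. For *Klf13* they were *Tpbg* (r = 0.998), *Ahsa1*, a co-chaperone of HSP90 (r = 0.997), and *Plpp5* (r = 0.996). An r over 0.95 was reached by 893 genes for *Klf15* and by 451 for *Klf13*. The 6 libraries hold both vehicle and TGFβ cells, so r takes in the difference between the groups and does not show a link between genes. These likenesses are a description.

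The least expressed relatives were *Klf1*, the erythroid KLF, with 1 to 5 reads per library, *Sp6* with 2 to 5, *Sp9* with 0 to 2, and *Klf17* and *Sp7* with at most 1, all under the filter on low counts. *Klf14* and *Sp8* were not found by name in the count table, which held 14 of the 16 genes listed.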
